A study of Mus musculus with 3 samples.

Results

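In 8 stretches of the mouse genome several neighbouring CpG islands carried the histone mark H3K27me3 in the colonic epithelium (male mice, strain Balb/c). They were chosen from these same measurements, because each held 5 or more islands with the mark on every array, so their high levels are a description and were not tested. The stretches are fixed windows on 7 chromosomes, and they held 306 of the 97651 probes of the array, or 49 of the 13713 islands that had at least 3 usable probes. An island here is a run of probes in which each start lies within 500 bp of the previous one. From the first to the last island marked on every array they run over chr19:44770721-44812736, chr17:85517219-85532072, chr15:98604263-98634197, chr5:139793913-139806982, chr3:129191691-129211019, chr2:105460778-105483309, chr5:120688331-120701149 and chr13:78642798-78667298, and the windows reach somewhat beyond. They are called by their chromosome below, and the first of the pair on chromosome 5 is called distal and the second proximal. Positions are those of the array files, which name no genome build and pair no probe with a gene, so genes, exons and introns are not named here and no sequence is printed.

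Chromatin of isolated crypts was cross-linked, sheared and precipitated with an antibody against H3K27me3, and the precipitate was hybridised against whole-cell extract (the input) on a 2-colour CpG island tiling array. There were 3 groups with 1 array each, and each array held material pooled from 3 mice. The groups were untreated mice at 7 weeks of age, untreated mice at 23 weeks, and mice at 23 weeks that had received 2% dextran sulfate sodium (DSS), which injures the colonic epithelium and causes colitis, for 1 week from the age of 7 weeks. No group had a replicate, so no difference below has a replicate check or a p-value, and the spread between mice is not known. A pooled value also cannot tell apart fewer cells with the mark from less of the mark in each cell. The array reads CpG islands and not expression, so the labelled cell type was not checked against markers.

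H3K27me3 is placed by Polycomb repressive complex 2, whose catalytic subunit is EZH2 or EZH1, and is bound by CBX proteins of Polycomb repressive complex 1. In mammals both complexes gather at CpG islands of genes that are not transcribed, above all at genes for developmental transcription factors and signalling proteins. At such loci several islands of one gene or of adjacent genes often carry the mark together, as the Hox clusters do, and adult epithelia including that of the colon keep many of them silent.

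All values are log2 ratios of precipitate over input, relative to the median positioned probe of the array, and an island's value is the median of its probes. A value of at least 1, which is 2-fold over that median, is called marked. The ± after an island's value is the SD over its probes within 1 hybridisation, and the ± after a cluster's value is the SD over its islands. Where 3 values stand in a row, they are those of the 7-week, the untreated 23-week and the DSS array, in this order. The interquartile range of the ratios was 1.97, 2.54 and 1.55, and the median background-subtracted precipitate intensity was 475, 120 and 267. Differences are therefore also given after scaling, that is with the same interquartile range on every array. No 2 arrays shared a slide or a scan day, so neither can be told apart from the group. A control probe spotted many times gave a spot-to-spot SD of 0.18 (355 spots), 0.32 (367 spots) and 0.21 (362 spots). Its median log2 ratio was -3.46, -1.78 and -2.09, so between the untreated arrays it differed by more than any island of the clusters did.

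The 49 islands were mostly at the top of the array in every group. In untreated mice at 7 weeks 44 of them were marked (background 20.8% of all islands), at 23 weeks 46 (background 26.0%) and after DSS 44 (background 14.1%). On all 3 arrays 44 were marked, against 13.6% of all islands, and 3 were below the threshold on all 3, against 73.6%. Their medians were 2.20 ± 0.74 (from -0.54 to 2.87), 2.46 ± 0.69 (from -0.36 to 3.08) and 1.63 ± 0.59 (from -0.66 to 2.31), with the SD over islands. The medians of all 13713 islands were -0.15, -0.25 and -0.12. In rank, 22 of the 49 lay among the top 5% of islands on all 3 arrays (background 3.34%) and 36 among the top 10% (background 7.49%). The highest island at 7 weeks was chr3:129205760-129207076 (2.87), at 23 weeks chr2:105469555-105470685 (3.08) and after DSS chr5:120688331-120688622 (2.31), so a different island led each array. The windows were drawn on these levels, and the shares are no support for them.

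**Figure D1:**
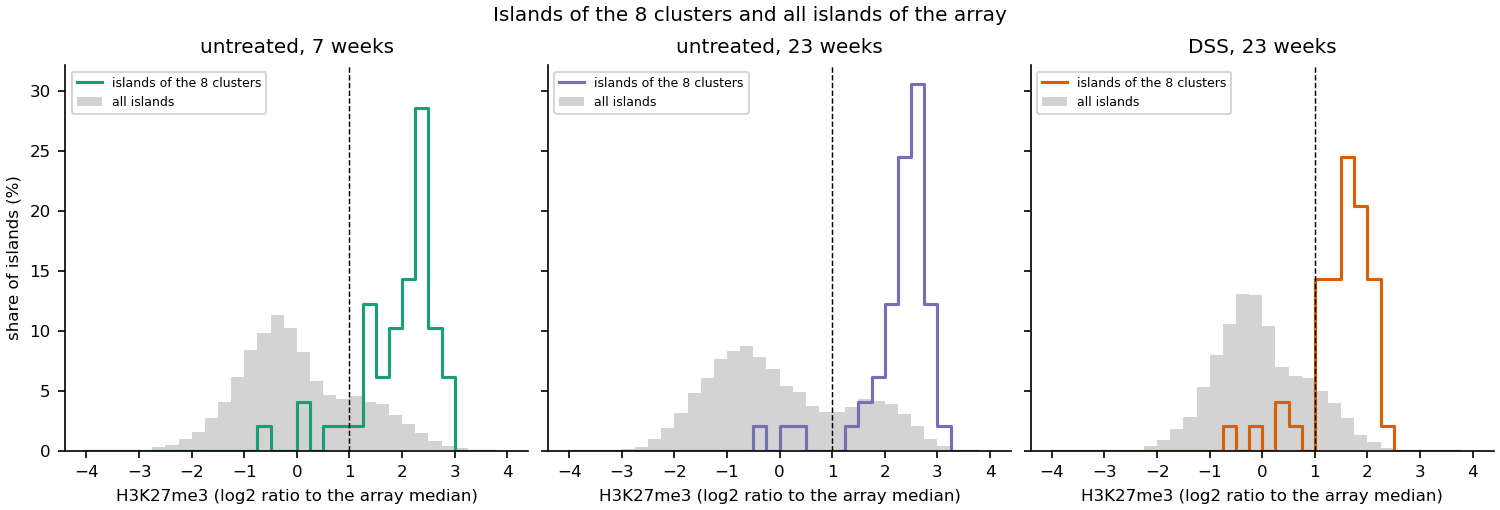
Share of islands (%) against the log2 ratio of H3K27me3 over input in bins of 0.25, for all 13713 islands (grey bars) and the 49 islands of the 8 clusters (coloured line), 1 panel per array. The dashed line marks the threshold of 1, and the islands of the clusters lie mostly to its right on every array.

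The high ratios went with high precipitate signal in every cluster. Relative to the median probe of the array (log2), the clusters' median input signal lay between -0.52 and 0.18, between -0.10 and 0.36, and between -0.66 and 0.22 on the 3 arrays. Their median precipitate signal lay between 1.58 and 2.41, between 2.33 and 3.02, and between 1.16 and 1.82. The input was lowest in the chromosome 2 cluster on every array, at -0.52, -0.10 and -0.66, where the precipitate was at 1.89, 2.59 and 1.36. No probe in the windows was saturated.

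The chromosome 2 cluster was the highest at 7 weeks and after DSS. Its 5 islands spanned 22.5 kb and had medians of 2.48 ± 0.32, 2.56 ± 0.28 and 1.95 ± 0.32. All 5 were marked on every array, and 29 of its 33 usable probes (87.9%) were at least 1 on all 3 arrays, against 74.4% of the usable probes of all 8 windows and 15.8% of those of the whole array. The window was drawn on these values. Its highest island by the mean of the arrays was chr2:105460778-105461142, with 2.85 ± 0.45, 2.85 ± 0.42 and 2.24 ± 0.31 over 3 probes. Its lowest was also its longest, chr2:105475465-105477624, with 2.13 ± 1.00, 2.56 ± 0.76 and 1.40 ± 0.80 over 17 probes. The first lay above the second on every array, with overlapping probe spreads.

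On chromosome 3, 5 islands over 19.3 kb had the highest cluster median at 23 weeks. The 3 values were 2.41 ± 0.24, 2.63 ± 0.25 and 1.74 ± 0.39. The islands lay close together in untreated mice, where the lowest was 2.22 at 7 weeks and 2.27 at 23 weeks, and spread further after DSS, from 1.21 to 2.19. At the low end was chr3:129196307-129196813 (2.22 ± 0.89, 2.27 ± 0.63 and 1.21 ± 0.71), and at the high end chr3:129205760-129207076 (2.87 ± 0.77, 2.80 ± 0.46 and 2.19 ± 0.65). Their probe spreads overlapped on all 3 arrays.

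The proximal chromosome 5 cluster was the shortest, with 5 islands in 12.8 kb, and had medians of 2.34 ± 0.47, 2.51 ± 0.27 and 1.69 ± 0.44. Within it the values fell off at 1 island only, chr5:120698632-120699046, with 1.35 ± 0.75, 1.97 ± 0.32 and 1.14 ± 0.44, while the islands on either side had at least 2.21, 2.47 and 1.66. The island at its low-coordinate end, chr5:120688331-120688622, had 2.55 ± 1.26, 2.61 ± 0.94 and 2.31 ± 1.44 over only 3 probes, which differed widely among themselves.

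The distal chromosome 5 cluster held 5 islands in 13.1 kb, and 34.1% of that stretch lay inside its islands, the largest share of the 8. Its medians were 2.05 ± 0.32, 2.46 ± 0.29 and 1.90 ± 0.39. It ranked 4 of 8 on both untreated arrays and 2 of 8 after DSS. By the mean of the arrays the island chr5:139793913-139795017 was its highest (2.43 ± 1.01, 2.61 ± 0.70 and 2.15 ± 0.57, 8 probes) and the next one along, chr5:139797375-139798609, its lowest (1.55 ± 1.13, 2.05 ± 0.93 and 1.14 ± 0.88, 10 probes).

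The chromosome 19 cluster was the longest, with 8 islands over 42.0 kb that were all marked on every array. Its median was the lowest of the 8 at 7 weeks (1.83 ± 0.50) and ranked 5 of 8 on the untreated 23-week array (2.45 ± 0.45) and the DSS array (1.64 ± 0.33). The values rose and fell along it rather than decaying from a centre. Over the first 4 islands the 7-week values were 1.65, 2.00, 2.33 and 1.05, and over the last 4 they were 1.38, 2.39, 1.49 and 2.28. By the mean of the arrays chr19:44779428-44779835 was the lowest (1.05 ± 1.18, 1.54 ± 0.88 and 1.24 ± 0.97), and chr19:44812078-44812736 the highest (2.28 ± 1.33, 2.92 ± 0.94 and 2.17 ± 0.55). The low one, with 3 probes, was also the island closest to the threshold among those marked on all arrays.

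On chromosome 17, 6 of 7 islands were marked on every array, within 14.9 kb. The cluster had 1.83 ± 0.69, 2.34 ± 0.50 and 1.44 ± 0.45. Its highest point lay inside it, at chr17:85526217-85526947 (2.75 ± 0.40, 2.94 ± 0.34 and 2.07 ± 0.30, 7 probes), and the probes of that island differed little among themselves. The seventh, chr17:85516351-85516756, lay below the threshold on 2 arrays, with 0.68 ± 0.86, 1.53 ± 0.62 and 0.63 ± 0.56. It ended 463 bp before the next island, chr17:85517219-85517559, which had 1.88 ± 1.81, 2.34 ± 1.53 and 1.65 ± 1.30.

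The chromosome 15 window was the most uneven. Of its 8 islands 5 were marked on every array, 2 on none, and 1 at 23 weeks alone. Over all 8 its medians were 1.99 ± 1.23, 2.26 ± 1.25 and 1.36 ± 0.90, the lowest of the 8 clusters on the untreated 23-week and DSS arrays. The 5 marked islands alone, within 29.9 kb, had 2.37 ± 0.38, 2.60 ± 0.30 and 1.63 ± 0.23, up to chr15:98617542-98618211 with 2.66 ± 0.83, 2.94 ± 0.44 and 1.84 ± 0.73. On the low-coordinate side the mark ended within 3.28 kb: chr15:98600508-98600980 had -0.54 ± 0.43, -0.36 ± 0.49 and -0.66 ± 0.33, and the next, chr15:98604263-98604951, had 1.72 ± 0.95, 2.16 ± 0.83 and 1.32 ± 0.62. The other unmarked island, chr15:98590354-98591461, lay further out and had 0.12 ± 0.83, 0.09 ± 0.73 and 0.32 ± 0.60 over 10 probes. On the other side chr15:98634798-98635118 had 0.75 ± 1.51, 1.34 ± 0.85 and 0.34 ± 1.10 at only 601 bp from an island with 2.37 ± 0.90, 2.36 ± 0.53 and 1.41 ± 0.61.

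In the chromosome 13 window 5 of 6 islands were marked on every array, within 24.5 kb, and the medians of all 6 were 1.88 ± 0.80, 2.29 ± 0.80 and 1.55 ± 0.70. The highest by the mean of the arrays was chr13:78642798-78643261, with 2.25 ± 0.43, 2.54 ± 0.24 and 1.57 ± 0.38. The unmarked one, chr13:78627072-78627423, had 0.18 ± 0.35, 0.38 ± 0.94 and -0.10 ± 0.56 and lay 15.4 kb from it, with no island of 3 usable probes between them.

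**Figure D2:**
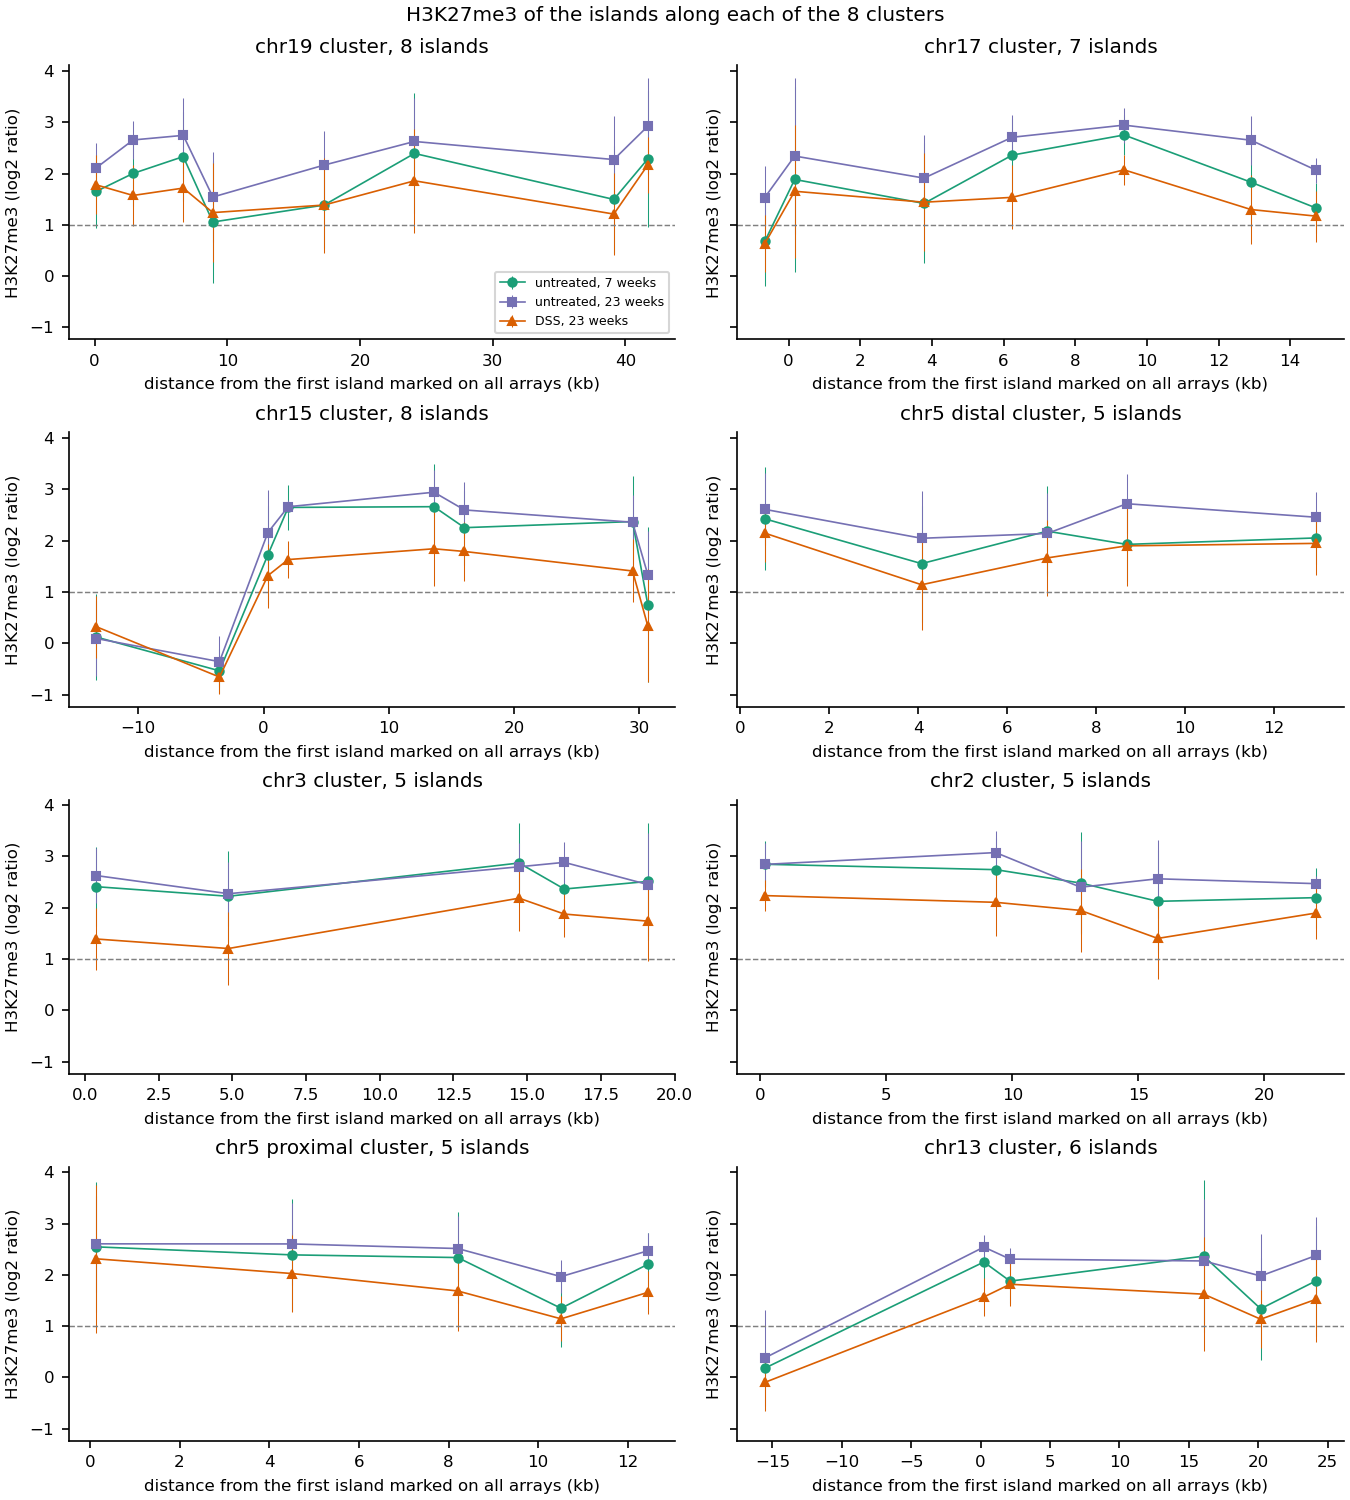
Log2 ratio of H3K27me3 over input of each island against its distance (kb) from the first island marked on all arrays, 1 panel per cluster and 1 colour per array. Bars are the SD over the probes of an island in 1 hybridisation, the dashed line is the threshold of 1, and the islands left of 0 kb in the chr15 and chr13 panels lie below it on every array.

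Over all 49 islands, the clusters differed less from each other than the islands within them did. Of the variance among the 49 islands, 21.5%, 20.2% and 25.5% lay between clusters. These shares include the islands not marked on all arrays and were not computed without them. In the chromosome 15 window the SD over islands was 1.23, 1.25 and 0.90 with such islands, and 0.38, 0.30 and 0.23 without them. With so few islands per cluster, some share lies between clusters even where they do not differ. Its size was not computed, here or for the shares given below. The order of the cluster medians was loose. At 7 weeks the chromosome 2, 3 and proximal chromosome 5 clusters (2.48, 2.41 and 2.34) lay within 1 SD of each other. The same held for those of chromosomes 13, 17 and 19 (1.88, 1.83 and 1.83). Nearest the threshold among islands marked on all arrays, chr19:44779428-44779835 had its lowest value, 1.05, at 7 weeks, and chr13:78662542-78663393 had 1.34, 1.98 and 1.14. The islands at 85516351 on chromosome 17 and 98634798 on chromosome 15 passed it on the untreated 23-week array alone.

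Beyond the windows, the closest measured islands were marked in some directions and not in others. Of the 16 flanking islands 8 were below 1 on all arrays, 6 were marked on all and 2 on the untreated 23-week array alone. The chromosome 3 and 13 clusters stood alone on both sides, with unmarked neighbours at 1362 kb and 315 kb (chromosome 3) and at 470.2 kb and 2759 kb (chromosome 13). By contrast the chromosome 19 cluster had marked islands on both sides, at 32.9 kb with 2.03, 2.37 and 1.65 and at 76.5 kb with 2.50, 3.00 and 1.55. The distal chromosome 5 cluster had a change of side: 55.5 kb below it an island had -2.08, -1.66 and -1.88, and 65.9 kb above it another had 2.62, 2.91 and 2.00. Joining all islands marked on every array over gaps of up to 20 kb gave 1402 clusters, of which 1114 were single islands and 14 held at least 5. The 8 windows hold 8 of those 14. The other 6 met the same count, with 5 to 11 islands, and are not covered here, so the 8 are not all such stretches of the array.

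Over all 49 islands, the probes within an island differed about as much as the islands did from each other, and in a way that recurred on every array. The median SD over the probes of an island was 0.86, 0.63 and 0.62. Among the 44 islands marked on all arrays the probes differed more than the islands did. There the median SD over probes was 0.87, 0.60 and 0.65, and the SD over islands was 0.46, 0.32 and 0.33. Deviations of the 296 probes from their island's median correlated at r = 0.91 between the untreated arrays, 0.92 between 7 weeks and DSS and 0.88 between 23 weeks and DSS. Over all 88449 probes in islands these values were 0.87, 0.90 and 0.84. The points share their probe sequences, and a correlation across probes is not a correlation across samples. Deviations of the ratio were only weakly related to those of the input, with a sign that changed between arrays (r = -0.11, 0.15 and -0.20). The ratio contains the input, so its deviations are not independent of those of the input. When each probe was compared with itself between arrays, the median SD within an island came down to 0.35 for 23 against 7 weeks and 0.30 for DSS against untreated.

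The longest islands show this pattern probe by probe. In chr2:105475465-105477624 the highest probe lay 807 bp from the first one and had 4.27, 3.98 and 3.12. The lowest probe lay 753 bp further on and had 0.47, 1.08 and 0.22. They were the highest and the lowest of the 17 probes on all 3 arrays. In chr19:44808771-44810922 the highest of 18 probes by the mean of the arrays, 1119 bp in, had 4.05, 3.70 and 2.93, and the lowest, 168 bp in, had 0.56, 1.04 and 0.48. Of its 18 probes 14, 18 and 10 were at least 1. The unmarked island chr15:98590354-98591461 also varied, from -1.14 to 1.53 at 7 weeks, and 2, 1 and 0 of its 10 probes passed the threshold. Its highest and lowest probes likewise kept their places on all arrays.

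**Figure D3:**
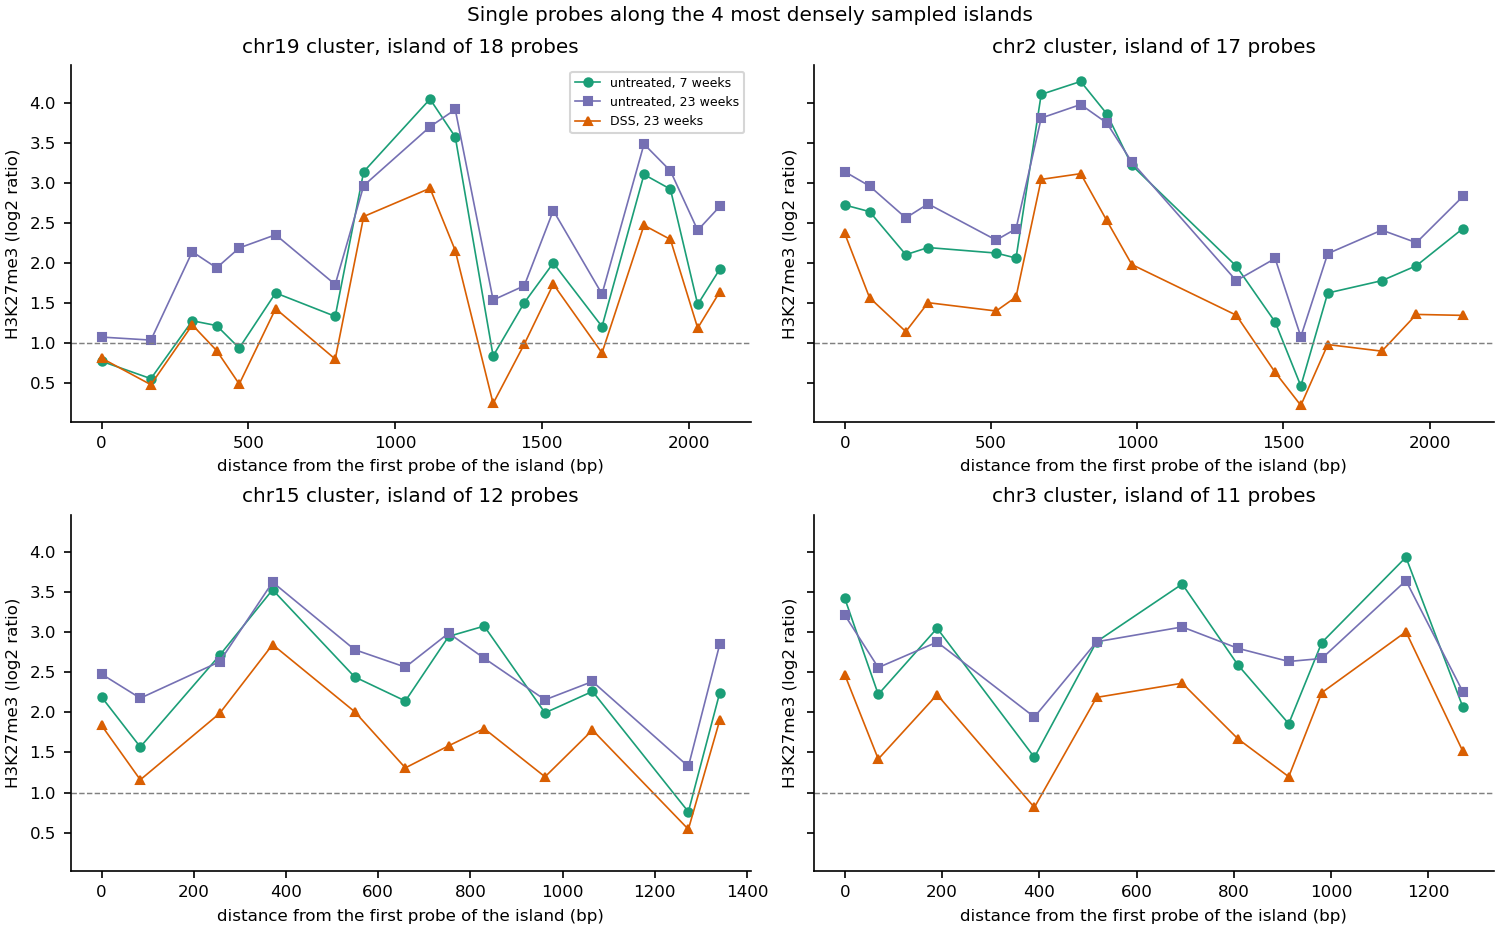
Log2 ratio of H3K27me3 over input of single probes against distance (bp) from the first probe, for the 4 islands of the clusters with most probes (18, 17, 12 and 11), 1 colour per array. The dashed line is the threshold of 1, and the peaks and dips recur on the 3 arrays.

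Between 7 and 23 weeks in untreated mice, no island of the clusters moved by 2-fold in either direction (background 0.139% higher and 0.168% lower, and after scaling 0.277% and 0.0729%). The differences were small and mostly upward, in 46 of 49 islands against 53.9% of all islands and 93.7% of those marked on all arrays, but after scaling 37 of the 49 were lower at 23 weeks and 12 higher (background 51.5% higher, and 22.0% of those marked on all arrays). Their median was 0.27 ± 0.20, against 0.03 over all islands and 0.31 over those marked on all arrays. After scaling it was -0.29 ± 0.26, against 0.01 and -0.17. The direction thus cannot be given without choosing a scale. Probe by probe, 232 of 296 were higher at 23 weeks before scaling, or 78.4%, against 55.6% of the probes of all islands and 79.7% of those of islands marked on all arrays. Every probe was higher in 15 of the 49 islands, or 30.6%, against 15.2% and 31.2%. After scaling 100 of the 296 probes were higher, or 33.8% (50.0% and 35.5%). Every probe was then higher in none of the 49 islands, against 7.55% of all islands and 1.66% of those marked on all arrays.

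The chromosome 17 and 19 clusters were at the upper end of the age differences on both scales. Their medians were 0.49 ± 0.19 and 0.45 ± 0.16 before scaling and 0.05 ± 0.26 and -0.03 ± 0.20 after it. The chromosome 3 cluster had 0.22 ± 0.12 and -0.41 ± 0.12, and the chromosome 2 cluster 0.22 ± 0.16 and -0.34 ± 0.20. The island with the largest difference was chr17:85531819-85532072, which went from 1.33 ± 0.48 to 2.06 ± 0.24, a difference of 0.74 ± 0.24 with all 3 probes higher (0.28 after scaling). Next was the island at 85516351 on chromosome 17 with 0.72 ± 0.38 (0.25 after scaling), which crossed the threshold. In the chromosome 3 and 2 clusters, chr3:129205760-129207076 and chr2:105460778-105461142 had 0.00 ± 0.39 and 0.00 ± 0.03 before scaling and -0.67 and -0.66 after it. Between clusters lay 36.4% of the variance of these differences before scaling and 31.2% after.

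After DSS, the islands of the clusters had lower values than in untreated mice of the same age before scaling, as marked islands in general did. The difference was negative in 48 of 49, against 51.6% of all islands and 99.8% of those marked on all arrays, but after scaling 35 of the 49 were higher after DSS (background 38.5% of all and 65.5% of those marked on all arrays). Their median difference was -0.76 ± 0.24, beside -0.02 over all islands and -0.78 over those marked on all arrays, and after scaling it was 0.21 ± 0.31, beside -0.07 and 0.09. A general change of the mark and a difference in range between arrays cannot be told apart here. Before scaling, 284 of 296 probes were lower, or 95.9%, against 58.9% of the probes of all islands and 98.8% of those of islands marked on all arrays. Every probe was lower in 42 of the 49 islands, or 85.7%, against 29.7% of all islands and 94.4% of those marked on all arrays. After scaling 123 of the 296 probes were lower, or 41.6% (56.0% and 43.8%). Every probe was then lower in 1 island, or 2.04%, against 10.3% of all islands and 1.71% of those marked on all arrays.

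A fall of at least 1 after DSS was seen in 7 of 49 islands (background 3.51% of all islands and 11.8% of those marked on all arrays), and after scaling in none (background 0.941%). A rise of at least 1 was seen in none, before scaling (background 0.78%) or after it (background 0.168%). They lay on chromosome 17 (3 islands), chromosome 15 (2), chromosome 2 and chromosome 19. The largest difference was at chr17:85529789-85530463, which went from 2.65 ± 0.48 to 1.30 ± 0.68, with a median probe difference of -1.19 ± 0.30 and 7 of 7 probes lower, and had 1.83 ± 0.88 at 7 weeks. After scaling its difference was -0.22. In chr2:105475465-105477624 the difference was -1.13 ± 0.32 with 17 of 17 probes lower, and -0.02 after scaling. All 7 were among the 44 islands marked on all arrays. The windows were chosen for such islands, so that these stayed marked after DSS was set by that choice.

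The islands at either end of the scaled DSS differences lay in different clusters. On the scaled values chr5:120688331-120688622 had the largest difference, 0.81 (-0.48 ± 0.52 before scaling), followed by chr5:139793913-139795017 with 0.68 (-0.52 ± 0.45), chr2:105460778-105461142 with 0.65 (-0.61 ± 0.11), chr19:44812078-44812736 with 0.65 (-0.76 ± 0.48) and chr19:44770721-44770986 with 0.64 (-0.57 ± 0.22). The smallest were at the edge of the chromosome 15 cluster: chr15:98600508-98600980, unmarked on every array, with -0.57 (-0.21 ± 0.25) and chr15:98634798-98635118 with -0.48 (-0.90 ± 0.49, 4 of 4 probes lower). The others at that end were chr17:85529789-85530463, chr15:98604263-98604951 (-0.14) and chr17:85531819-85532072 (-0.12).

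By cluster, the median DSS difference ran from -0.90 ± 0.24 on chromosome 17 to -0.61 ± 0.25 on chromosome 2 before scaling, and from -0.06 ± 0.24 to 0.55 ± 0.28 in the same 2 clusters after it. The distal chromosome 5 cluster had -0.72 ± 0.09 and 0.47 ± 0.19, and all 5 of its islands were higher after DSS on the scaled values. In the chromosome 15 window the values were -0.87 ± 0.43 and 0.03 ± 0.30, and on chromosome 13 they were -0.72 ± 0.19 and 0.08 ± 0.23. The share of variance between clusters was 8.97% before scaling and 34.3% after, and some share arises even where clusters do not differ.

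**Figure D4:**
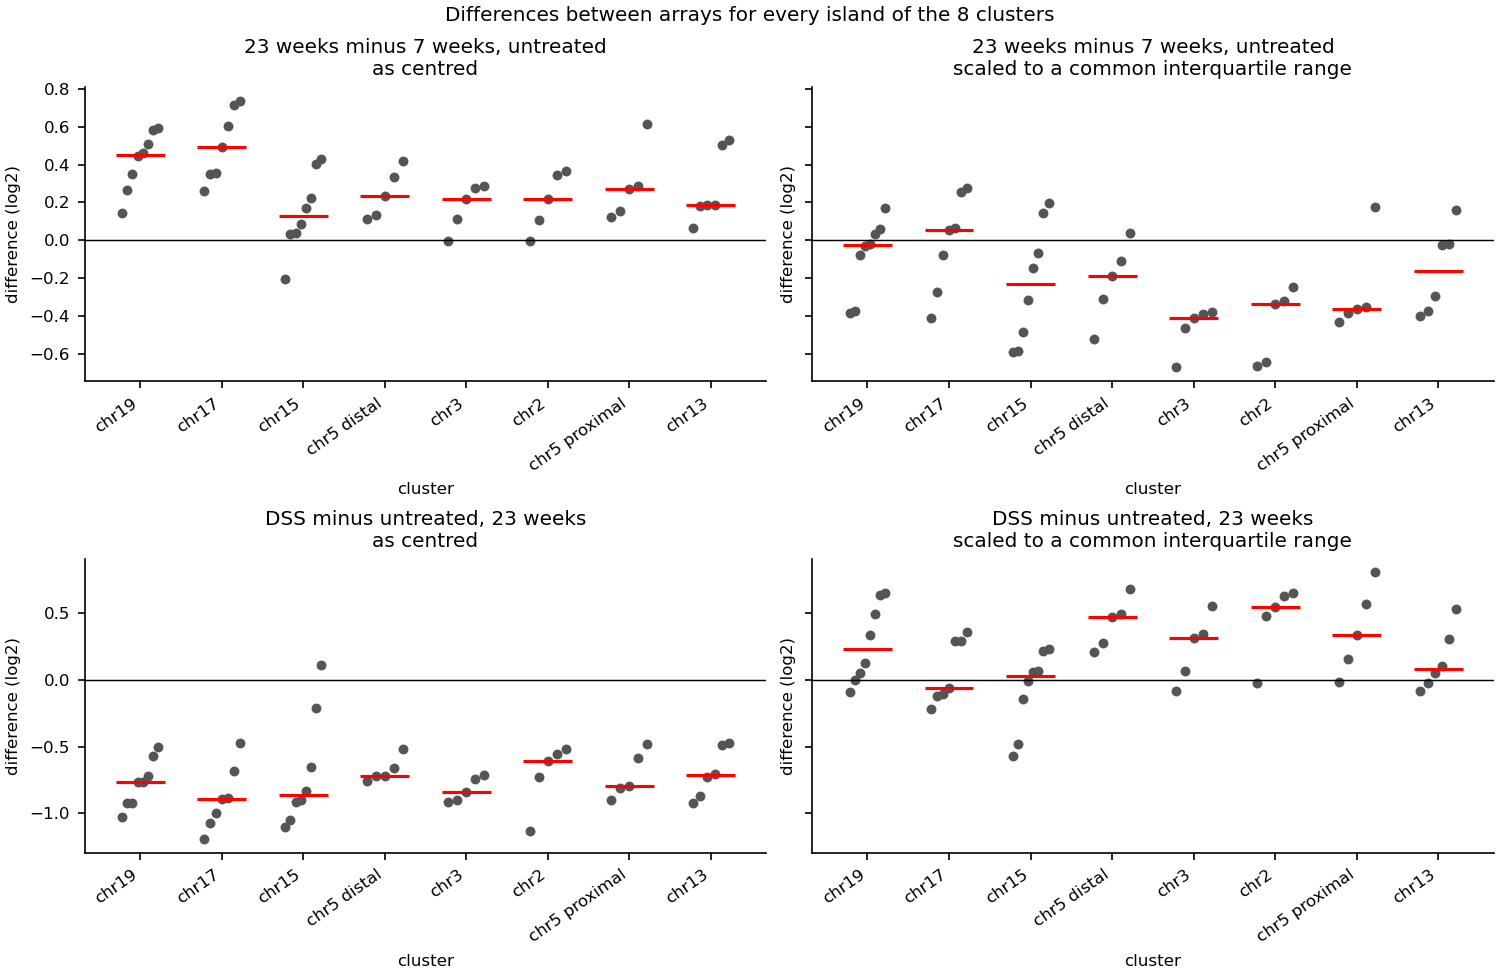
Log2 difference between arrays for each island (points) and the median of each cluster (red bar), for 23 minus 7 weeks in untreated mice (top) and DSS minus untreated at 23 weeks (bottom), as centred (left) and after scaling to a common interquartile range (right). Most points lie above 0 at top left and below 0 at top right, and the reverse holds in the lower panels.

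Against untreated mice at 7 weeks, DSS-treated mice were lower in 47 of 49 islands (background 54.9% of all, 97.1% of those marked on all arrays; after scaling 20 of 49 were higher, background 35.1%), with a median difference of -0.49 ± 0.27 before scaling and -0.04 ± 0.24 after it. None was lower by at least 1 (background 0.671%). This comparison differs in age and in treatment at once, and it shares an array with each of the other 2, which in turn share the untreated 23-week array with opposite sign, so the 3 sets of differences are not independent of each other.

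Ranks within an array do not depend on its scale. The windows were chosen for islands with high values on every array, so high ranks on all 3 were set by that choice, they left little room to rise, and they say nothing about stability. The median percentile of the 49 islands among all islands was 96.6, 95.9 and 96.5. From untreated mice at 23 weeks to DSS the percentile rose in 27 and fell in 22, with a background of 49.6% rising (57.8% of islands marked on all arrays, of which 26 of 44 in the clusters), and by a median of 0.26 percentile points. From 7 to 23 weeks it rose in 30 and fell in 19 (background 50.0%, and 47.7% of islands marked on all arrays). The largest falls after DSS were in 3 islands outside the 44 marked on all arrays: chr15:98600508-98600980 went from the percentile 46.8 to 23.2 (33.1 at 7 weeks), chr13:78627072-78627423 from 64.8 to 51.1 (62.5 at 7 weeks) and chr15:98634798-98635118 from 78.3 to 69.4. The largest rises were at chr15:98590354-98591461, from 59.0 to 68.9, and chr19:44779428-44779835, from 81.6 to 90.7. By cluster the median percentile ran from 92.6 to 98.4, from 93.3 to 97.7 and from 93.0 to 98.8.

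**Figure D5:**
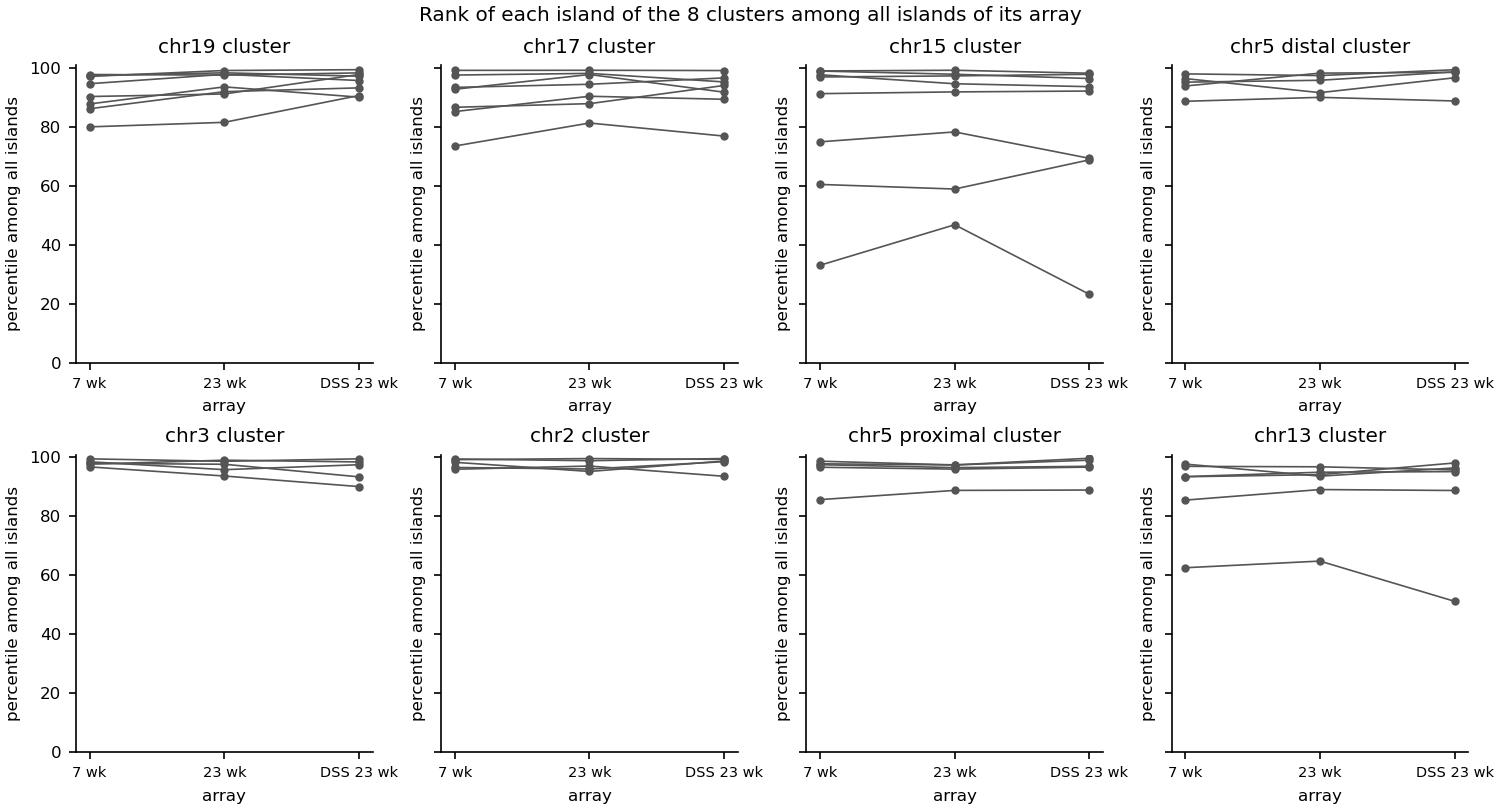
Percentile of each island of the 8 clusters among all 13713 islands of its array (100 is the highest), with 1 line per island across the 3 arrays and 1 panel per cluster. Most lines stay above 80 on every array, and the lines that lie lower are in the chr15, chr13 and chr17 panels.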

How the data were processed

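The deposited scanner files hold spot intensities from Agilent's Feature Extraction software (the file headers name version 10.7.3.1, the submitters' processing notes 9.1). Background subtraction and dye normalisation are already in the processed intensities. The precipitate was in Cy5 and the input in Cy3 on every array, per the labels, with no dye swap. The deposited log10 ratio matched these intensities within 0.001 at 99.998% or more of the probes on every array. A deposited table of linear ratios, with no note on how it was made, served as an alternative.

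The log2 ratio was centred on the median of the 97159 positioned probes. Probes were left out for an outlier mark on any array or for a signal near background in either channel (5 of 306 in the windows: 4 with a mark, all on the untreated 23-week array, and 1 near background), and 301 were kept, 296 of them in islands. Differences were taken per probe, then as island medians. Scaling divided each array by its interquartile range and multiplied by the mean range. No loess or quantile step was used, and no test was run, because each group has 1 array. Code was tested on simulated data, with Python 3.11.15, numpy 2.4.6 and pandas 2.3.3. Alternatives used limma 3.58.1 in R 4.3.3.

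The windows, lists and thresholds were chosen with earlier results of these data known. Islands named in full were the highest and lowest of each window, the 5 largest and 5 smallest scaled DSS differences, and those below 1 on all arrays. Others were named after their values were seen.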

Additional observations from a re-analysis of the deposited data

How the results depend on the processing

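All alternatives were run 1 at a time. The count of islands marked on all arrays stayed between 41 and 44, except with at least 5 probes per island, when it was 27 of 30, and at a mark of 1.5, when it was 30. The windows were drawn on these levels, and no background share is given for these counts. The median age difference (0.27) was -0.29 with scaling, -0.21 with loess and -0.13 with normexp background correction, and 0.10 with quantile normalisation. With the deposited table of linear ratios 1 of 49 islands had an age difference of at least 1, against 0 in the main setting. No background share is given for that count. The median DSS difference (-0.76) was 0.21 with scaling, -0.020 with quantile normalisation, -0.095 with loess and -0.49 with normexp. The 7 islands lower by at least 1 (background 3.51%) became 0 with scaling, quantile normalisation, loess and normexp (background 0.941%, 0.401%, 0.248% and 0.306%). They became 4 with centring on the kept probes (background 2.31%) and 4 of 30 with at least 5 probes (background 3.32%). The count rose to 9 when an island's value was the mean of its probes (background 3.62%). It stayed at 7 with the deposited table of linear ratios, where the background was higher (5.72%). At a threshold of 0.5 the count was 43, but the median difference of islands marked on all arrays was itself -0.78. No background share is given at that threshold. After scaling the DSS difference was above 0 in 35 of the 49 islands (background 38.5%). Among them were islands that had fallen by at least 1 before scaling. These were 98617542 on chromosome 15 (0.057), 85526217 on chromosome 17 (0.29) and 44777266 on chromosome 19 (0.053). The cause of these shifts was not tested. The chromosome 2 cluster had the highest median DSS difference of the 8 (-0.61) under all settings but joining within 300 bp and at least 5 probes, and it was above 0 with scaling (0.55), quantile normalisation (0.20) and loess (0.29). With 1 array per group, no replicate could be left out. No paired analysis was possible because each group has 1 array. The number of arrays limits the precision.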

Other observations

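Of the usable probes in the windows 5 belonged to no island of 3 probes and entered no comparison of islands. They do count in the share of the windows' usable probes that were at least 1. A pair lay in the chromosome 19 window between islands, at 44800049 and 44800232, with 2.11, 2.25 and 1.34 and with 3.42, 3.33 and 2.67 at 7 weeks, 23 weeks and after DSS. Another pair followed at 44803758 and 44803893, and the second of these was the highest of all 301 usable probes on every array, with 4.57, 4.25 and 3.43, against 1.57, 2.36 and 0.96 at its neighbour. The last, on chromosome 15 at 98632221, had 0.44, 1.21 and 0.49. The 4 on chromosome 19 therefore passed 1 on both untreated arrays, in a stretch where no island with enough probes was measured.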
